A study of Homo sapiens with 10 samples.

Results

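The vehicle-only HER2 sites were the peaks of HER2 in vehicle-treated SKBR3 cells that overlapped, by even 1 bp, no HER2 peak of EGF-treated SKBR3 cells, vehicle-treated BT474 cells or EGF-treated BT474 cells. They were chosen by the positions of the called peaks alone. There were 1455 of them among 2596 peaks in the SKBR3 vehicle list, which was 56% of that list, and the 4 HER2 lists held 43001 peaks in all. The remaining 1141 SKBR3 vehicle peaks each overlapped at least 1 of the other lists and serve as the comparison set. SKBR3 and BT474 are established human breast cancer lines with an amplified ERBB2 gene, and cells were given vehicle (H2O) or EGF at 100 ng/ml for 3 hours without serum deprivation. HER2 was mapped by ChIP-exo, in which immunoprecipitated DNA is trimmed by an exonuclease up to the cross-linked protein. Each condition had 1 HER2 list and no replicate, so presence in a single list has no replicate check, and treatment cannot be told apart from the library. The antibody came from the same catalogue entry in every HER2 sample, but its lots differed between the lines, so line and lot cannot be told apart either.

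HER2 is a receptor tyrosine kinase of the ERBB family that signals from the cell surface through the RAS-MAPK and PI3K-AKT cascades. EGF binds EGFR, another receptor of the family, which can pair with HER2. Full-length HER2 has also been described on chromatin in the nucleus, together with transcription factors such as STAT3. Monomethylation of lysine 4 of histone H3 (H3K4me1) marks enhancers, the distal elements that act on promoters, and it was mapped here by ChIP-seq in 2 replicates per line.

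Alternating stretches of the purines A and G were far more frequent in the vehicle-only sites than in the genome. The other SKBR3 vehicle peaks also held such stretches far more often than the genome. The share of the study's core motif in the vehicle-only sites was below that of the other SKBR3 vehicle peaks. An exact tandem run of the unit AG, at least 20 bp long and read on either strand, was present in 133 of 1455 vehicle-only sites (9.14%, 95% Wilson interval 7.77 to 10.7%) and in 73 of 1141 other peaks (6.40%, 5.12 to 7.97%). Fixed tiles of 212 bp along the genome, the median width of the vehicle-only sites, held such a run in 0.1008% of cases, so the vehicle-only share was 90.7 times the genome's. From the highest-scored vehicle-only sites with an AG run, 3 that were no wider than 300 bp and outside exons are printed first to show what these stretches look like. They were picked after their values were seen. Capitals mark the 8-base word GAGAGAGA on either strand and exact tandem runs of at least 20 bp, and all positions are in GRCh37.
Intergenic site nearest ZFYVE9P2, chr2:17429832-17430090, plus strand: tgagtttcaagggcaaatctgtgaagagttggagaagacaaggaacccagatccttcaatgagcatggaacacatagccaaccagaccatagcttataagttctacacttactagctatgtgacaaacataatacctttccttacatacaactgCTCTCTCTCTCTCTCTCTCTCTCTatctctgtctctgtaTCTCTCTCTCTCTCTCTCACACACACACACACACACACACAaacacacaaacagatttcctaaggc
Intergenic site nearest ENSG00000275285, chr20:37021066-37021315, plus strand: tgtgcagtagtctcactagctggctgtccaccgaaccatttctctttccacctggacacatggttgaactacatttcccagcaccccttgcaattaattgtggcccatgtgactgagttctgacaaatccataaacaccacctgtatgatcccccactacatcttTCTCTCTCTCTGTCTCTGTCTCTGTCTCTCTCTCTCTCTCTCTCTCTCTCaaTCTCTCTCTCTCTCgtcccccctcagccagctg
Site in an intron of LINC01031, chr1:193327301-193327575, plus strand: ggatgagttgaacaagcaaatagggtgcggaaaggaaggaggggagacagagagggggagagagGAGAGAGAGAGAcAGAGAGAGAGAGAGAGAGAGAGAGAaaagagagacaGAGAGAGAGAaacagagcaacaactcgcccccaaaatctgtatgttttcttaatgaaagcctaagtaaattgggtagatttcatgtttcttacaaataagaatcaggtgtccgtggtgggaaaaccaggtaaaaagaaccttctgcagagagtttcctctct

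The run stood towards 1 end of the peak in each of these sequences. In the sites nearest ZFYVE9P2 and ENSG00000275285 it was read as TC on the plus strand and lay in the right-hand part, and in the LINC01031 site it was read as AG on the plus strand and lay in the left-hand part. All 3 therefore had the AG run 5′ of the midpoint along the strand that reads AG. Their scores were 77.5, 69 and 64, at ranks 78, 129 and 176 of the list.

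The AG runs of all 133 sites numbered 153 and were 20 to 63 bp long, with a median of 27 bp. Sites with a run had a median score of 34 and sites without one a median of 35, and the median widths were 211 and 212 bp. From the lowest-scored to the highest-scored groups of 363 or 364 vehicle-only sites, the share with an AG run was 9.34%, 10.16%, 9.37% and 7.69%. Introns held 65 of the 133 sites (48.9%, 40.5 to 57.3%) and intergenic sequence held 56 (42.1%, 34.1 to 50.6%). For sites without a run these shares were 56.4% (53.7 to 59.0%) and 37.3% (34.7 to 39.9%), with overlapping intervals.

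The AG share exceeded that of the other SKBR3 vehicle peaks by 2.74 percentage points (95% Newcombe interval 0.655 to 4.78). This interval reached 0 when it was widened for 19 of the differences examined, when only peaks above the median score were used, when chromosomes 8, 17 and 20 were left out (2.24 points, -0.0113 to 4.44), and with runs of at least 30 bp (1.44 points, -0.0354 to 2.87). Those 19 leave out the differences from the other single-list sets and those in 5′ position. With the BT474 lists limited to as many top-scored peaks as the SKBR3 vehicle list has, the difference was 6.11 points (3.90 to 7.87). This setting changes the sets compared, since 2096 SKBR3 vehicle peaks then count as vehicle-only. Peaks found only in SKBR3 EGF had an AG run in 9 of 345 cases (2.61%), which was 6.53 points lower than the vehicle-only share (interval of the difference 3.87 to 8.54). Peaks found only in BT474 EGF had one in 380 of 20353 cases (1.87%), lower by 7.27 points (5.88 to 8.87). Among peaks found only in BT474 vehicle, 0 of 730 had one, with an upper Wilson limit of 0.523%. These sets come from different libraries of unknown depth, and their median widths were 202 bp for SKBR3 EGF only, 229 bp for BT474 EGF only and 209 bp for BT474 vehicle only. The share of peaks seen in a single list was 13.7% for SKBR3 EGF, 8.53% for BT474 vehicle and 69.4% for BT474 EGF.

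Shorter purine stretches covered more of the sites. The word GAGAGAGA, on either strand, was present in 505 of 1455 vehicle-only sites (34.7%, 32.3 to 37.2%), against 33.6% of the other SKBR3 vehicle peaks and 2.52% of genome tiles. The difference between the peak sets was 1.14 points (-2.54 to 4.80), an interval that included 0. With the BT474 lists limited to as many top-scored peaks as the SKBR3 vehicle list has, the difference was 5.21 points (0.590 to 9.58). A run of only purines or only pyrimidines of at least 20 bp was present in 392 sites (26.9%), against 22.8% of the other peaks (difference 4.15 points, 0.796 to 7.46) and 4.97% of tiles. Unlike the AG runs, this difference was not put through the alternative settings or the widened interval. A related word with 1 C, GACAGAGA, went the other way, with 173 vehicle-only sites (11.9%) against 23.7% of the other peaks (-11.8 points, -14.8 to -8.81) and 1.47% of tiles. These words can overlap in the same stretch. At least 1 of GAGAGAGA, GACAGAGA or a purine tract was found in 629 vehicle-only sites (43.2%, 40.7 to 45.8%) and in 43.3% of the other peaks, and the remaining sites in both sets had none of them.

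GAGAGAGA was present in 10.4% of the peaks found only in SKBR3 EGF, 24.3 points below the vehicle-only share (19.9 to 28.0). It was present in 13.9% of those only in BT474 EGF (20.8 points lower, 18.3 to 23.3) and in 2.60% of those only in BT474 vehicle (32.1 points lower, 29.3 to 34.8). Among the 4 sets of peaks seen in a single list, the share of GAGAGAGA and that of AG runs were thus highest in SKBR3 vehicle.

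**Figure D1:**
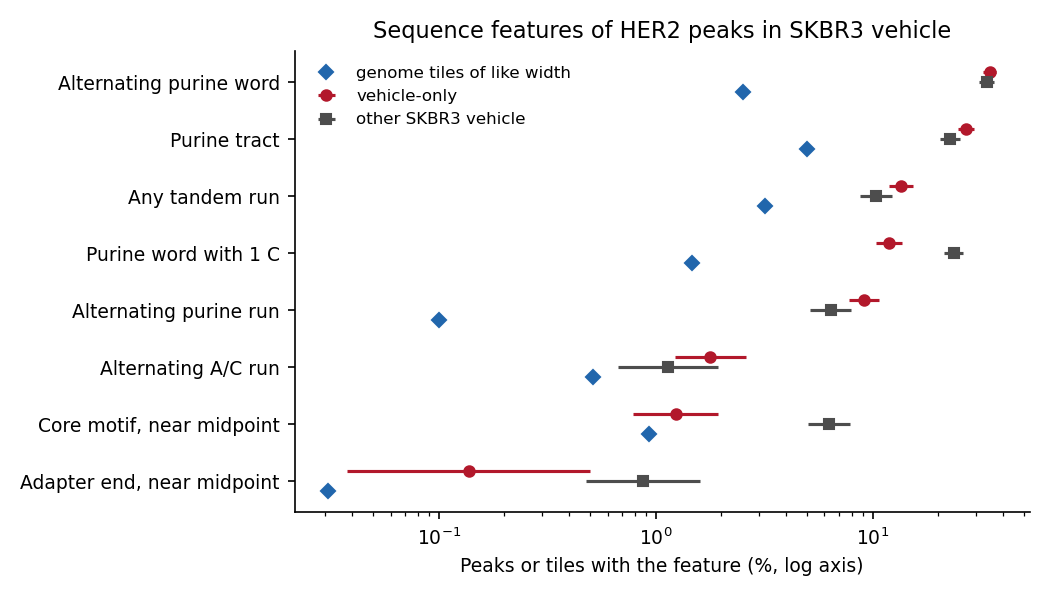
Percentage of vehicle-only sites (circles), other SKBR3 vehicle peaks (squares) and genome tiles (diamonds) with each sequence feature on a log axis, with 95% Wilson intervals for the peaks. The alternating purine run was at 9.14% and 6.40% in the peak sets and at 0.1008% in tiles, whereas the core motif was at 1.24% in vehicle-only sites, close to the 0.934% of tiles, and at 6.31% in the other peaks.

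The purine word lay mostly on 1 side of the midpoint. Where GAGAGAGA occurred within 150 bp of the midpoint of a vehicle-only site (544 sites), the median position of its copies lay 5′ of the midpoint along the strand that reads GAGAGAGA in 476, or 87.5% (84.5 to 90.0%). Over those sites the median offset was -54.5 bp, with the middle 50% of values from -81.5 to -27.5 bp. In the other SKBR3 vehicle peaks the 5′ share was 76.6% (305 of 398) and the median offset was -37.5 bp, and the vehicle-only share was higher by 10.9 points (5.93 to 15.9). In peaks found only in SKBR3 EGF the word lay 5′ of the midpoint in 22 of 41 (53.7%, 38.7 to 67.9%), which was 33.8 points below the vehicle-only share (19.2 to 49.0). In those found only in BT474 EGF it did so in 74.2%, which was 13.3 points below (9.88 to 16.3). The midpoint stands in for the summit, which the lists do not give.

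GACAGAGA also lay mostly 5′ of the midpoint, in 170 of 207 vehicle-only sites (82.1%) and in 70.5% of the other peaks, a difference of 11.6 points (4.02 to 18.8). The count near the midpoint differed from that over whole peaks. Within 50 bp of the midpoint GAGAGAGA was present in 20.4% of vehicle-only sites and in 25.7% of the other peaks, a difference of -5.27 points (-8.55 to -2.01). It was still the 8-base word with the largest excess over the genome in these windows, where 1.19% of genome tiles of that length had it, and the next words were AGAGAGAG, its shifted form, and AGAGAGAA.

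**Figure D2:**
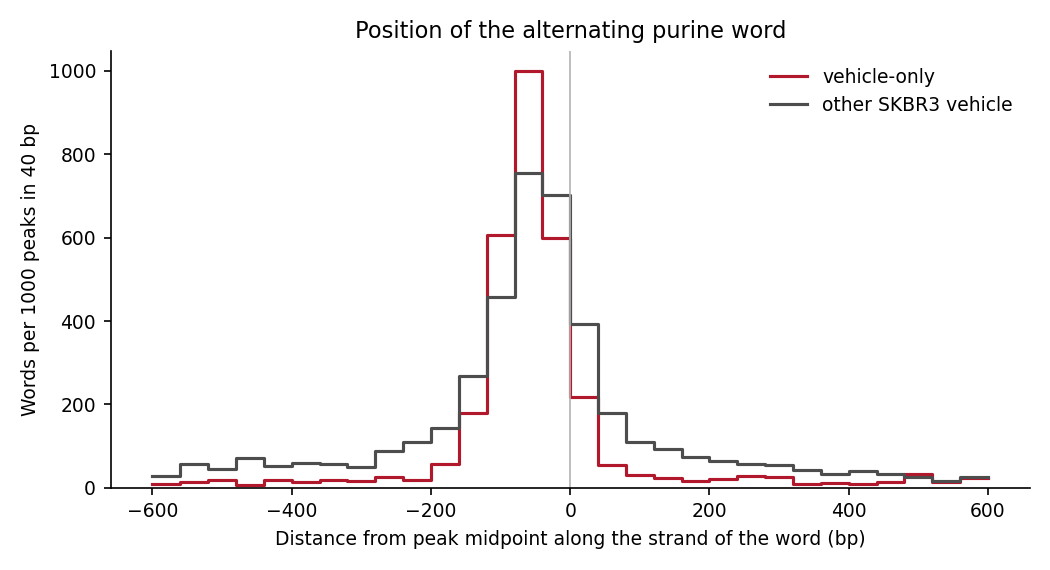
Number of copies of the alternating purine word per 1000 peaks in bins of 40 bp against the distance from the peak midpoint in bp, oriented so that negative values are 5′ along the strand of the word. In vehicle-only sites the density was 999 per 1000 peaks from -80 to -40 bp and 53.6 from 40 to 80 bp. The curve of the other SKBR3 vehicle peaks was broader and less one-sided. Overlapping copies were counted, so a long run adds several. Within 150 bp of the midpoint, 3890 copies lay in 544 of the 1455 vehicle-only sites.

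Other simple repeats were less common. Any exact tandem run of a unit of 1 to 6 bases and at least 20 bp was present in 197 vehicle-only sites (13.5%, 11.9 to 15.4%), in 10.3% of the other peaks and in 3.18% of tiles. The difference between the peak sets was 3.20 points (0.672 to 5.67). It was -1.53 points for runs of at least 12 bp and -0.449 within 50 bp of the midpoint, both with intervals that included 0, and 5.37 points (2.35 to 7.91) with the limited BT474 lists. Its interval also reached 0 when widened for 19 differences, above the median score and without chromosomes 8, 17 and 20. A total of 26 different units occurred, of which AG led, followed by AC in 26 sites (1.79%, against 0.515% of tiles) and AGAT in 9. The highest-scored site with a run, by the same limits on width and place, is printed because its unit was not AG but was also purine-rich on the plus strand. Capitals mark the exact run.
Intergenic site nearest RNA5SP487, chr20:54770126-54770355, plus strand: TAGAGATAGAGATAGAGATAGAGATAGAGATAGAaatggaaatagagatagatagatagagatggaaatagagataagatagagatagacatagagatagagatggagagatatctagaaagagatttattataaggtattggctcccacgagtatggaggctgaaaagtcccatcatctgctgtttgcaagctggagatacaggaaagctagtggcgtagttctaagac

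The site nearest RNA5SP487, a 5S rRNA pseudogene, scored 79.5 and lay in H3K4me1 islands of both SKBR3 replicates. It was 53.5 kb from MC3R, the gene of a melanocortin receptor. Beyond the marked run the sequence went on with the same unit in imperfect copies.

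The core motif that the study derived for HER2, CGTNTGC, was less frequent in the vehicle-only sites than in the other SKBR3 vehicle peaks. It was found within 50 bp of the midpoint, on either strand, in 18 of 1455 sites (1.24%, 0.784 to 1.95%), against 72 of 1141 other SKBR3 vehicle peaks (6.31%, 5.04 to 7.87%) and 0.934% of tiles of the same length. The difference of -5.07 points (-6.70 to -3.62) kept an interval below 0 in every alternative tried. However, the study derived this motif from the same HER2 lists. It reported the motif at SKBR3 EGF peaks, at peaks shared by both SKBR3 treatments and at all BT474 subsets. At SKBR3 peaks of the vehicle condition alone it did not find the motif. The other SKBR3 vehicle peaks overlap the SKBR3 EGF or BT474 lists, so the direction of this difference was partly set in advance. Near the midpoint the interval of the vehicle-only share included the genome value. Over whole peaks the motif was present in 3.51% of vehicle-only sites (2.68 to 4.58%), which was 1.76 times the 1.99% of tiles and above it, and in 14.7% of the other peaks. In peaks found only in BT474 vehicle it was present in 16.99%, and the difference, vehicle-only minus these, was -15.7 points (-18.7 to -13.1). In those found only in BT474 EGF it was present in 5.78% (-4.55 points, -5.11 to -3.77). The share in peaks found only in SKBR3 EGF was 2.03%, and the interval of that difference included 0 (-2.94 to 0.470 points).

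The highest-scored core site lay in an intron of PKIA-AS1, with a score of 110.5. The next 3 by the same limits are printed because such sites are the exceptions in this set. Capitals mark CGTNTGC on either strand and, in the EGFLAM sequence, GAGAGAGA.
Site in an intron of ARFGEF2, chr20:47547328-47547621, plus strand: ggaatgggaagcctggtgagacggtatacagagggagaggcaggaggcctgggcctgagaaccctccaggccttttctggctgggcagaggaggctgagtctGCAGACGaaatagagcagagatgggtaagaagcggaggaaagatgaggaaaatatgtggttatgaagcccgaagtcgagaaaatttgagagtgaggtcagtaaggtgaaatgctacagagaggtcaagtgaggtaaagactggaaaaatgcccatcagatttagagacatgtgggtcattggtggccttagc
Intergenic site nearest EGFLAM, chr5:38231944-38232151, plus strand: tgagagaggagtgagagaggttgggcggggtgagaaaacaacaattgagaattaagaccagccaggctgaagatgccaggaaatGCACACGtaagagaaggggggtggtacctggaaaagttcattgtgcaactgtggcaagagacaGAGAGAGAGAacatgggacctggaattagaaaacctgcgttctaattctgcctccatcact
Intergenic site nearest POLE4, chr2:75180036-75180246, plus strand: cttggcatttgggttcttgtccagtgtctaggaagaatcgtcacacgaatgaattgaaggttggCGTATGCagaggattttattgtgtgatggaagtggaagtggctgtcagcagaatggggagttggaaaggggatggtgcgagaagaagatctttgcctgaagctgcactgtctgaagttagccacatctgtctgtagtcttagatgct

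The ARFGEF2 site, in a gene for an exchange factor of ARF GTPases, scored 53 and lay in islands of both replicates of both lines. The site 26.5 kb from EGFLAM scored 48.5 and lay in no island of the 4 libraries. The site 5.63 kb from POLE4, which encodes a small subunit of DNA polymerase epsilon, scored 39 and lay in islands of both SKBR3 replicates and of neither BT474 replicate. Core and GAGAGAGA stood together in 4 vehicle-only sites, of which the EGFLAM site was 1.

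Stretches of the P7 sequencing adapter, which is ligated to the DNA during ChIP-exo, were also searched. Near the midpoint the last 8 bases, TACGAGAT, were present in 2 vehicle-only sites (0.137%) against 0.876% of the other peaks (-0.739 points, -1.48 to -0.199) and 0.0308% of tiles. An inner stretch, GCATACGA, was in 0 of 1455 vehicle-only sites, with an upper limit of 0.263%, and in 32 of the other peaks (2.80%). Read on the other strand this stretch contains the core motif, so those 32 peaks are among the 72 with a core and the findings are not separate. A further stretch near the start of the primer, AAGCAGAA, was at 0.825% in vehicle-only sites, 2.10% in the other peaks and 0.858% of tiles. All 3 stretches were thus less frequent in the vehicle-only sites than in the other SKBR3 vehicle peaks, although the interval for TACGAGAT reached 0 when widened for 19 differences.

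The scores and widths describe the sites and were not tested, since the peak calls behind them also decided membership. The score is the authors' own on an unstated scale. Vehicle-only sites had a median score of 35 (7 to 1597) and a median width of 212 bp (170 to 562), against 35.5 (9.5 to 1961.5) and 220 bp (150 to 875) for the other peaks. Towards the top of the list vehicle-only sites were scarcer, with 1 of the 10 highest-scored peaks, 19 of the first 50 (38%) and 247 of the first 500 (49.4%). In the 4 score groups of 649 peaks they made up 57.2%, 56.9%, 57.8% and 52.4% from lowest to highest.

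The rule itself excludes any overlap between vehicle-only sites and the other lists. The nearest peak of another list was a median of 26.7 kb away and at least 4 bp. Of the 1455 sites, 13 lay within 100 bp of such a peak, 57 within 1 kb and 357 within 10 kb. Whether these gaps differ from those of random positions was not tested. The long BT474 EGF list set most of these distances, with a median of 29.3 kb to it, 104.4 kb to BT474 vehicle and 226.2 kb to SKBR3 EGF. Just outside the rule, the smallest overlap of another SKBR3 vehicle peak was 9 bp, only 1 peak overlapped by 20 bp or less, and the median overlap was 210 bp. Of these 1141 peaks, 1119 overlapped BT474 EGF, 427 BT474 vehicle and 338 SKBR3 EGF. The long BT474 EGF list was the only one overlapped by 621 of them, so membership depends on the length of that list. Between vehicle-only sites the median gap to the nearest other was 362.8 kb, and 53 (3.64%) had another within 10 kb. Whether this spacing is closer than random placement would give was not tested.

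**Figure D3:**
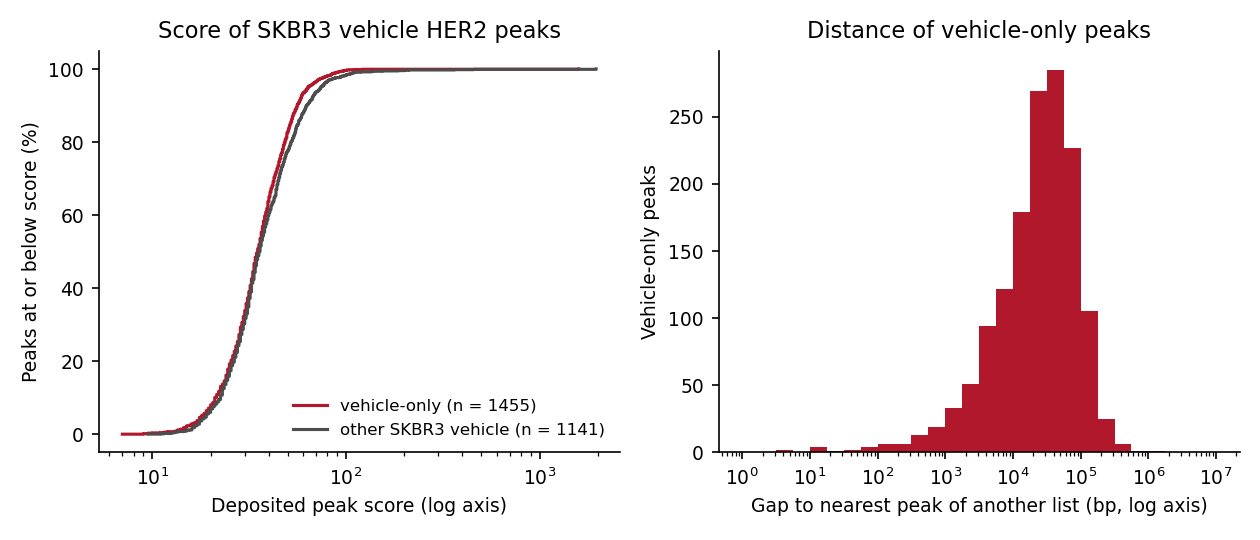
Left, the cumulative percentage of SKBR3 vehicle peaks against their deposited score on a log axis, for vehicle-only sites and the other peaks. Right, the number of vehicle-only sites by gap to the nearest HER2 peak of another list in bp on a log axis. The score curves run close together with medians of 35 and 35.5, and the gaps centre on 26.7 kb.

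The highest-scored vehicle-only site stood alone. It lay in a UTR exon of LMNA (ENSG00000160789), which encodes lamins A and C of the nuclear lamina, at chr1:156107511-156107714. Its score of 1597 was the second highest of the whole list, whereas the next vehicle-only site scored 121.5. It held GAGAGAGA but no AG run of 20 bp, lay in no H3K4me1 island of the 4 libraries, and was 47.4 kb from the nearest peak of another list.

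The second site, at a score of 121.5, and the sixth, at 99, lay in introns of GRM8 (chr7:126078652-126893147, minus strand), a metabotropic glutamate receptor gene. Between them came sites in introns of PKIA-AS1, POT1-AS1 (score 104) and MKLN1, the muskelin gene, at ranks 14, 20 and 23 of the list. The POT1-AS1 site was only 93 bp from a peak of another list and so belongs to the 13 sites nearest the rule's limit. The seventh site, at 98, was in the promoter of MC3R, 155 bp from the gene, with an island in 1 SKBR3 replicate. An intron of DHX32, a gene of the DEAH-box helicase family, held a site scoring 92.5 that lay in islands of both SKBR3 replicates and of neither BT474 replicate. Of the 15 highest-scored sites, 7 were on chromosome 7 and 3 on chromosome 20.

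The next sequences contrast high-scored sites of 1 gene without and with the purine word. Capitals mark GAGAGAGA on either strand.
Higher-scored site in an intron of GRM8, chr7:126217676-126217845, plus strand: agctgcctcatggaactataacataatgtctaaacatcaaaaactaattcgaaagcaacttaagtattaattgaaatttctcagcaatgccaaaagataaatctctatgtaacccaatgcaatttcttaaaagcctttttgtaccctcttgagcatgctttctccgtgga
Lower-scored site in an intron of GRM8, chr7:126165609-126165858, plus strand: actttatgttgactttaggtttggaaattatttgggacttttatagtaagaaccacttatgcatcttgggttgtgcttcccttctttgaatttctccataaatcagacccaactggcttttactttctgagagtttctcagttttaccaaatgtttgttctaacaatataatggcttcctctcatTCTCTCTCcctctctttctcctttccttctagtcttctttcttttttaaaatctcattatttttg

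The higher-scored GRM8 site held no core motif, tandem run or GAGAGAGA, and 7 of the 15 highest-scored sites held none of the 3. In the lower-scored GRM8 site the word was read on the minus strand and lay in the right-hand part, on the same 5′ side as in the AG-run sites above.

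By genomic feature the vehicle-only sites did not differ detectably from the other SKBR3 vehicle peaks. Of the 1455 midpoints, 810 were in introns (55.7%), 549 were intergenic (37.7%), 49 were in promoters, the 1 kb upstream of a start site (3.37%), and 47 were in exons (3.23%). The corresponding shares of the other peaks were 55.5%, 35.9%, 4.56% and 4.03%, and those of genome tiles 54.3%, 36.8%, 4.21% and 4.69%. The differences were 0.192 points for introns (-3.65 to 4.04), 1.80 for intergenic sequence (-1.95 to 5.52), -1.19 for promoters (-2.78 to 0.311) and -0.801 for exons (-2.33 to 0.637). Of the 47 exonic sites, 21 were in UTRs, 7 in coding sequence and 19 in noncoding exons. The median distance to the start site of a protein-coding gene was 49.3 kb for vehicle-only sites and 36.1 kb for the other peaks. Median GC content was 43.8% against 43.5% for the other peaks and 40.1% for tiles, and the median number of CpG per 100 bp was 0.5 against 0.873.

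H3K4me1 covered a minority of the sites. In SKBR3, 225 vehicle-only sites (15.5%, 13.7 to 17.4%) overlapped an island of replicate 1 and 241 (16.6%, 14.7 to 18.6%) one of replicate 2, a mean of 16.01% ± 0.778 (SD, n = 2). The other peaks were at 15.1% ± 0.124 and genome tiles at 11.7% ± 0.0656. The differences from the other peaks were 0.302 points in replicate 1 (-2.52 to 3.07) and 1.58 in replicate 2 (-1.27 to 4.37), so no difference was detectable. In BT474 the means were 11.96% ± 0.972 for vehicle-only sites, 12.6% ± 0 for the other peaks and 11.3% ± 0.344 for tiles. The SKBR3 shares were thus 1.32 and 1.405 times the genome's, and the BT474 shares 1.09 and 1.02 times. The labels call the H3K4me1 cells asynchronous and the study's text calls them EGF-treated, so the match in treatment to vehicle is uncertain.

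Site by site, 1108 of the 1455 (76.2%) lay in no island of any of the 4 libraries, 84 lay in islands of all 4, and 80 lay in both SKBR3 replicates and no BT474 replicate. The reverse pattern, both BT474 replicates and no SKBR3 replicate, was found at 47 sites. SKBR3 islands that held a vehicle-only site had median lengths of 5.8 and 6.3 kb in replicates 1 and 2, and those that held another SKBR3 vehicle peak 4.4 and 5.4 kb. Their median read densities were 45.6 and 45.5 reads per kb, against 41.7 and 42.8. These values were not tested. Sites with an AG run were in SKBR3 islands in 17.3% (11.8 to 24.6%) and 18.8% (13.1 to 26.3%) of cases. Sites without one were at 15.3% (13.4 to 17.3%) and 16.3% (14.4 to 18.4%), so the intervals overlapped. Of all 1455 sites, 133 (9.14%) had an AG run and 191 (13.1%) an island in both SKBR3 replicates. Both features met at 20 sites (1.37%, 0.892 to 2.11%) and at 6 of the 1141 other peaks (0.526%, 0.241 to 1.14%). Whether the 2 features go together was not tested. By score, from the lowest to the highest group of 363 or 364 sites, 14.01%, 10.4%, 17.9% and 19.5% were in islands of replicate 1. For replicate 2 the shares were 13.2%, 12.9%, 18.7% and 21.4%. The second group was thus the lowest in both replicates, and the change with score was not tested.

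**Figure D4:**
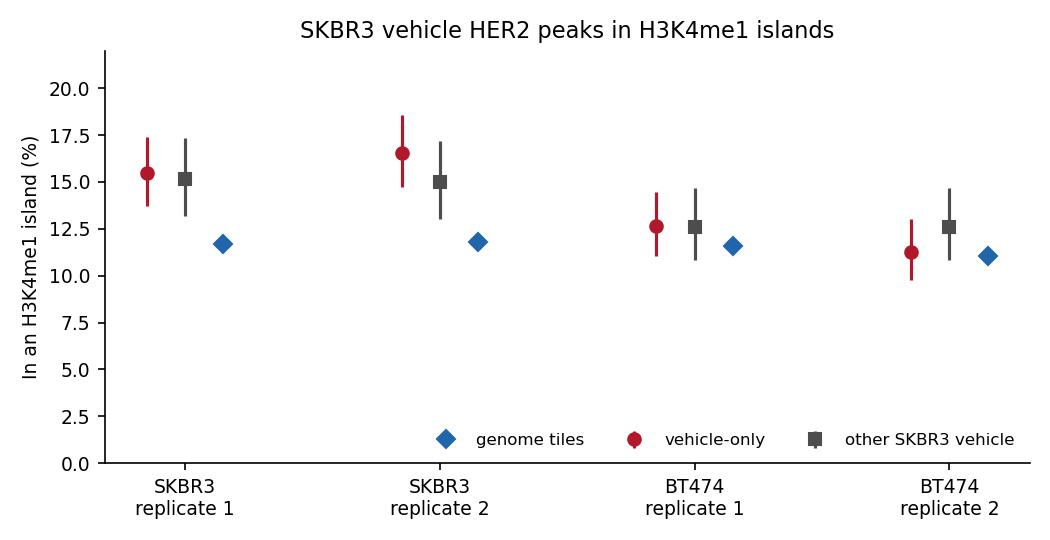
Percentage of vehicle-only sites (circles), other SKBR3 vehicle peaks (squares) and genome tiles (diamonds) that overlapped an H3K4me1 island, for each replicate, with 95% Wilson intervals for the peaks. Vehicle-only sites were at 15.5% and 16.6% in the SKBR3 replicates and at 12.6% and 11.3% in the BT474 replicates, with intervals that overlap those of the other peaks throughout.

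Chromosomes 20 and 7 were crowded with vehicle-only sites. Chromosome 20 held 125, or 2.10 per Mb of known sequence against 0.513 over the genome, which was 4.09 times its share of the genome. Chromosome 7 held 201, or 1.29 per Mb and 2.52 times its share. The other SKBR3 vehicle peaks followed the same pattern at 3.05 and 2.50 times, as did the SKBR3 EGF list at 3.29 and 1.98 times, whereas the BT474 vehicle and EGF lists stood at 0.963 and 1.03 times on chromosome 20 and at 1.397 and 1.29 times on chromosome 7. H3K4me1 reads per island base on chromosome 20 were 1.37 and 1.36 times the median chromosome in SKBR3 and 1.61 and 1.62 times in BT474. On chromosome 8 the SKBR3 values were highest, at 2.19 and 2.23 times, and vehicle-only sites were at 0.505 times that chromosome's share. The part of copy number in these densities was not tested.

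The mix of vehicle-only and other peaks varied between chromosomes, and chromosome 19 was furthest from that of the whole list. There 16 of 69 SKBR3 vehicle peaks were vehicle-only (23.2%, 14.8 to 34.4%), below the 56% of the list. On chromosome 17, which carries ERBB2, they were 35 of 49 (71.4%, 57.6 to 82.2%), and on chromosome 18 there were only 10, or 0.134 per Mb. The densest stretch of 10 Mb was chromosome 20 from 50 to 60 Mb, with 40 vehicle-only sites and 13 other SKBR3 vehicle peaks. Whole lists placed 43 SKBR3 EGF peaks there, against 6 from BT474 vehicle and 21 from BT474 EGF, while its H3K4me1 density was 1.48 and 1.46 times the genome's in SKBR3 and 2.24 and 2.26 times in BT474. The next stretches were chromosome 7 from 120 to 130 Mb, around GRM8, with 32 and 12, and chromosome 1 from 200 to 210 Mb, with 24 and 7.

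**Figure D5:**
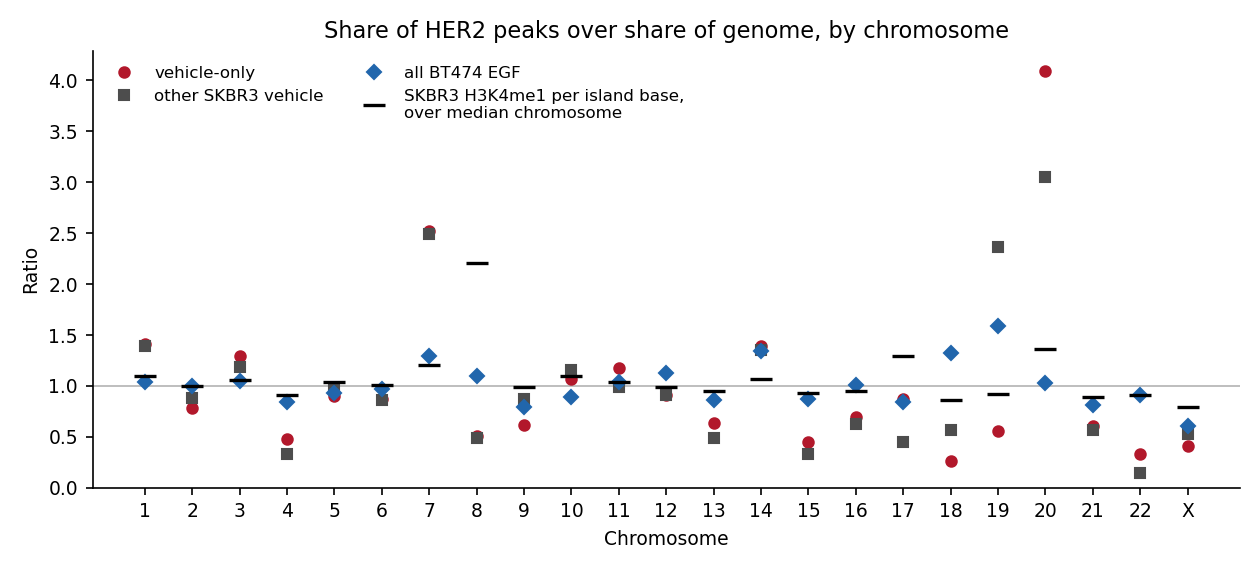
Share of peaks on each chromosome divided by its share of the genome for vehicle-only sites (circles), other SKBR3 vehicle peaks (squares) and all BT474 EGF peaks (diamonds), with dashes for SKBR3 H3K4me1 reads per island base over the median chromosome (mean of 2 replicates). Vehicle-only sites reached 4.09 on chromosome 20 and 2.52 on chromosome 7, and on chromosome 19 they stood at 0.559 against 2.36 for the other SKBR3 vehicle peaks.

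Genes with several vehicle-only sites were long. Of the 20098 protein-coding genes, 22 held at least 3 within their bodies. GRM7 (chr3:6811688-7783220, plus strand), another metabotropic glutamate receptor gene, held 7 over 971.5 kb, with scores of 17.5 to 66 and none in SKBR3 H3K4me1. Then came, at 4 sites each, AUTS2, LRMDA, MACROD2, which encodes a mono-ADP-ribosylhydrolase, and RBFOX3, which encodes a neuronal splicing regulator. Each of these genes also held other SKBR3 vehicle peaks, with 3 each in LRMDA and MACROD2, 2 each in GRM7 and RBFOX3, and 1 in AUTS2. The genes with 3 sites included the cadherin genes CDH4 and CDH22, the channel genes CACNA1E and KCNMA1, the receptor phosphatase genes PTPRT and PTPRN2, and GNAI1, GRM8, MAGI2, MYO16 and TNIK. All 3 sites of PTPRT held GAGAGAGA. All 3 sites of CARMIL1, which encodes a regulator of actin capping, lay in SKBR3 H3K4me1. Longer genes offer more room for sites, and the counts were not adjusted for length.

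Genes of the HER2 pathway and related lists were also looked up. Within 10 kb of 715 of 20098 protein-coding genes, or 3.56%, there was a vehicle-only site, and the other SKBR3 vehicle peaks lay near 673 (3.35%). In the RAS-MAPK list the count was 2 of 21 genes, BRAF, a kinase of the cascade, and SPRED2, an inhibitor of it. The BRAF site was intronic, at chr7:140553328-140553554, with a score of 19.5 at rank 2423 of the list and no H3K4me1 island. The SPRED2 site was intronic, at chr2:65568203-65568412, scored 24.5, held GAGAGAGA and lay in islands of both BT474 replicates but of neither SKBR3 replicate. In the list of the nuclear lamina and envelope the count was 1 of 13, LMNA, which holds the highest-scored vehicle-only site. The lists were chosen with earlier results of these data known, so these counts only describe.

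No vehicle-only site lay within 10 kb of the 4 ERBB receptor genes, the 11 genes of EGF family ligands, the 11 STAT and JAK genes, the 3 genes whose promoters have been described as targets of nuclear HER2, the 15 luminal transcription factor genes or the 13 nuclear import genes. The other SKBR3 vehicle peaks lay near 1 luminal gene, ESR1, and 1 import gene, KPNA4. With lists this short, a share of 3.56% corresponds to less than 1 gene in each.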

How the data were processed

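HER2 peaks (1 list per condition) and H3K4me1 islands (2 replicates per line) were taken as deposited by the authors. Per the study's methods, reads were mapped to hg19 with bowtie2, HER2 peaks were called with MACS2 and islands with SICER against the input of the line, and regions of the ENCODE blacklist and of high input were removed. The submitters' processing notes instead name BWA 0.5.9, MACS 1.4.1 and SICER 1.1. The score of each HER2 peak is on the authors' own unstated scale, in steps of 0.5. The deposited count per island is whole reads, without scaling, and the islands of a library held 15.1 to 18.7 times 1000000 reads. HER2 depth is unknown. The 2 inputs were not analysed here.

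Sequence came from GRCh37 and genes from GENCODE 44 lifted to it (63827 genes, of which 20098 protein-coding, on chromosomes 1 to 22 and X). Shares were compared by 95% Newcombe intervals of their difference, built from Wilson limits, which cover counting error only, since neither peaks nor their neighbours are replicates. Genome shares came from 1337547 tiles of 212 bp and 28075668 of the length of the motif windows (50 bp either side of the midpoint). Python 3.11.15, scipy 1.17.1 and pysam 0.24.0 were used, and the functions were tested on simulated data. Named were the 15 highest-scored sites, protein-coding genes with at least 3 sites, and listed genes with a site within 10 kb. The members and lists were chosen with earlier results of these data known, and the purine words, the AG-run sequences and their tests were added after the values were seen. Some results that these rules would name are not reported here.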

Additional observations from a re-analysis of the deposited data

How the results depend on the processing

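Of 143 alternative settings, 111 of them fixed at the outset and 32 added after the data were seen, 117 left a result's direction and its side of the threshold, or its value within the stated limits, where they were. The core motif and GACAGAGA differences and the 5′ share of GAGAGAGA kept their direction and an interval without 0 under every setting run for them. No setting changes that the study derived the core motif from these same lists. With only peaks above the median score, the differences were -0.718 points for the P7 end, 2.62 for simple repeats and 1.87 for AG runs, each with an interval that reached 0. With intervals widened for 19 differences, those of the P7 end (-0.739), simple repeats (3.20) and AG runs (2.74) reached 0. Without chromosomes 8, 17 and 20 those of simple repeats (2.02) and AG runs (2.24) did, and the SKBR3 H3K4me1 difference was -0.176. Runs of at least 30 bp gave 1.44 for AG, with an interval that reached 0. The BT474 lists limited to the length of the SKBR3 vehicle list gave 6.11 for AG, with 2096 peaks then counted as vehicle-only. Simple repeats of at least 12 bp gave -1.53, and runs within 50 bp of the midpoint gave -0.449. GAGAGAGA was at 5.21 points (0.590 to 9.58, without 0) with the limited BT474 lists and at -5.27 near the midpoint. Feature differences that never left 0 changed sign at 0.112 for promoters with the limited BT474 lists, and for introns at -0.0847 with a gap of 100 bp shared, -0.266 with the limited lists, -2.00 above the median score, -0.300 with 1 peak per 10 kb and -1.44 with protein-coding genes alone. Leaving out a replicate gave H3K4me1 differences of 0.302 to 1.58 in SKBR3 and of -1.35 to 0.0255 in BT474. By construction, keeping only peaks above the median score left fewer vehicle-only sites, 715 near 350 coding genes. Their median score percentile, ranked again among the kept peaks alone, was 46.6. Their median GC content was 43.1%. Start sites alone gave 346 genes. The causes of the other changes were not tested. No paired analysis was possible because the HER2 lists have no replicates and no test compares the lines that share H3K4me1 replicate numbers. The unknown HER2 depth limits what absence from a list means.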
